A study of Homo sapiens with 24 samples.

Results

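The lysosomal genes described here are 39 human genes that encode membrane proteins of the lysosome, its hydrolases and their cofactors, subunits of the proton pump that acidifies it, and the transcription factor TFEB. They were chosen by gene symbol, and their expression was read from 60 probes of an Illumina bead array that carries 47286 probes. Of the 39 genes, 37 had a probe named in the supplied annotation, and the exceptions were CD63 and ATP6V0C. TFEB had a probe that was not above background on any array (0 of 24). The remaining 36 genes were tested among the 11494 genes of the study that passed the detection filter. They comprised 6 membrane proteins, 18 hydrolases, 3 luminal cofactors and 9 proton pump genes. Of these, 35 were detected on all 24 arrays and HEXA was detected on 23.

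RNA came from monolayers of H838 (a non-small cell carcinoma line of human lung) that filled the wells of plates beneath a porous culture insert. On the insert grew HPAEC, endothelial cells taken from human pulmonary arteries, or, in the control, more H838 cells, and all cells were kept in endothelial growth medium with serum, growth factors and hydrocortisone. The monolayer was lysed unscratched (0 h) or at 1 of 9 times after repeated scratching: at 0.5, 1 and 2 h (called early here), at 3, 4 and 5 h (middle), and at 10, 15 and 24 h (late). No array after 0 h came from an unscratched monolayer, so effects of scratching and of the hours passed cannot be told apart. Each co-culture had 12 arrays, of which the 0 h and 24 h conditions took 2 apiece and the 8 remaining times 1. H838 is a single line, and the labels do not say whether duplicate arrays came from separate cultures, so p-values measure only the spread between these samples, which may be technical.

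The 2 array chips nearly coincided with the co-cultures: chip 1 held 10 HPAEC arrays and 2 H838 arrays (0 h replicate 1 and 0.5 h), and chip 2 held 10 H838 arrays and 2 HPAEC arrays (replicate 2 at 0 h and at 24 h). Both HPAEC replicate 2 arrays carry a tag that names H838 as the second cell line, against their title and co-culture tag. They were kept as HPAEC by title, and counts without them are given beside the results. The arrays detected 32.75% to 37.13% of probes, and the log2 difference between duplicates had an SD over all genes of 0.216 to 0.263. Among 15 endothelial markers with a probe, 8 (VWF, CDH5, KDR and ENG among them) were detected on no array and 2 (MMRN1 and SOX18) on all. EGFL7 was detected on 21 arrays, TEK on 3, and PECAM1, CLDN5 and ERG on 1 each. The summed raw intensity of the endothelial list, over 19 probes, was 4849 to 6833 on HPAEC arrays and 4484 to 6111 on H838 arrays. These sums include background: the median raw intensity over all probes was 108.81 to 129.96 per array. Of 7 epithelial carcinoma markers with a probe, EPCAM was detected on all 24 arrays, KRT18 on 21, CDH1 on 4, KRT8 on 2, KRT19 on 1, and KRT7 and CLDN4 on none. Contributions of these cell type signals to the results were not tested.

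Lysosomes are acidic organelles in which soluble hydrolases break down proteins, glycans, sulfated sugars and lipids that arrive by endocytosis and autophagy. The V-type ATPase pumps protons into the lumen: its cytosolic V1 sector hydrolyses ATP, and its membrane V0 sector carries the protons. TFEB and its relatives TFE3 and MITF are transcription factors known to bind E-box motifs of the CACGTG type, shared by promoters of many lysosomal genes. In migrating tumour cells, lysosomes are known for adhesion receptor turnover and for the release of cathepsins.

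The promoters of these genes were read from RefSeq windows (GRCh38.p14) that run from 250 bases before to 50 bases after an annotated gene start. Such a window was on hand for 26 of the 39 genes. The letters TCACGTG were searched on both strands, so that the reverse complement CACGTGA counts too. They occurred in 8 of the 26 genes (30.8%), against 4.49% of the 27305 genes in the table. The 8 genes were LAMP1, MCOLN1, CTSA, CTSD, GAA, NEU1, ATP6V0B and ATP6V0D1. The shorter core CACGTG, which overlaps the same places, occurred in 9 of 26 (34.6%, against 8.77% of all genes), with CD63 as the addition. The longer palindrome TCACGTGA occurred in 5 of 26 (19.2%, against 1.18%). A match is a description of the letters and not of a bound site.

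The stretches below, 5′ to 3′ on the strand of each gene, show 4 promoters that hold the motif, with the matches in capitals. LAMP1 (chr13:113297029-113297119, plus strand) holds 6 matches in its window, of which 4 lie in the stretch shown. MCOLN1 (chr19:7522504-7522623, plus strand) and GAA (chr17:80101461-80101580, plus strand) hold 2 each, and ATP6V0D1 (chr16:67481158-67481277, minus strand) holds 1.
LAMP1: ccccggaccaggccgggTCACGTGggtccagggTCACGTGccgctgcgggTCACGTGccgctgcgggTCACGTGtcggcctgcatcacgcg
MCOLN1: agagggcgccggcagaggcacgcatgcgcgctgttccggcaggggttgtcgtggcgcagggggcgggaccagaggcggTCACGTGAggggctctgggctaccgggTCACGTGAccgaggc
GAA: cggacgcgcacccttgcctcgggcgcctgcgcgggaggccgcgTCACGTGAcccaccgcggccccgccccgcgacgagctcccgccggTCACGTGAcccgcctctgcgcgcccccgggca
ATP6V0D1: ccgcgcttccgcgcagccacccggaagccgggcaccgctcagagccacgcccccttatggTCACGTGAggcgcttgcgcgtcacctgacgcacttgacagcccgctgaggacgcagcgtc

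Promoters of 3 genes that changed with time, CD68 (chr17:7579518-7579637, plus strand), NPC1 (chr18:23586507-23586626, minus strand) and ATP6V1D (chr14:67359805-67359924, minus strand), are shown for comparison. Their windows hold no TCACGTG on either strand, so no letters are in capitals.
CD68: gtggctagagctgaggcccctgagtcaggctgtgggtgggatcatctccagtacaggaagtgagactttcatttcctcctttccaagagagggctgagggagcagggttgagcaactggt
NPC1: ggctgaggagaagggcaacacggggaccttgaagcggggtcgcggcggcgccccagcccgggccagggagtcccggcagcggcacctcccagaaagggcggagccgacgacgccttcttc
ATP6V1D: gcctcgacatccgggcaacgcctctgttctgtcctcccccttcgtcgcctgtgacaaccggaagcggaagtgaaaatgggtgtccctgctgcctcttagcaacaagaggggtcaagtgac

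Over the whole course, by the probe used for each gene, the lysosomal genes that changed after scratching were 2 membrane proteins, 3 V1 pump subunits and 1 protease. In the test over the 9 times after 0 h, 6 of the 36 genes passed (16.7%), against 22.8% of all 11494 genes tested (limma, Benjamini-Hochberg adjusted p under 0.05 throughout), a difference in share that was not tested. By the sign of the largest change, 4 rose (12.2% of all genes) and 2 fell (10.6% of all genes). CD68 and NPC1 fell, and ATP6V1C1, ATP6V1D, ATP6V1A and CTSH rose at the time of their largest change. Of the 18 hydrolases only CTSH passed. The count was 2 (CD68 and NPC1) without the HPAEC replicate 2 arrays and 4 to 5 without any single array of the duplicated times. The list depended on the probe. When every kept probe was tested by limma, other probes of PSAP, ATP6V0E1 and LAMP2 also passed over time. Their largest changes were 0.25 (SE 0.067, adjusted p = 0.013), 0.36 (SE 0.076, adjusted p = 0.035) and 0.39 (SE 0.091, adjusted p = 0.037). ATP6V1C1 did not pass there (adjusted p = 0.055).

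Tested at single times, 0 of the 36 genes passed limma's test at 0.5, 1, 2, 3 and 4 h, when 0.244%, 0.339%, 1.5%, 5.98% and 5.73% of all genes did. At 5 h 2 passed, CD68 and ATP6V1B2 (7.71% of all genes). At 10 h and at 15 h the 2 that passed were CD68 and NPC1 (10.5% and 6.6% of all genes). At 24 h 5 passed, CD68, NPC1, CTSH, ATP6V1A and ATP6V1D (11.4% of all genes). At an unadjusted p under 0.05 the counts were 5 at 0.5 h, 2 at 1 h, 1 at 2 h, 4 at 3 h and 3 at 4 h. Over all 11494 genes they were 1345, 1061, 1449, 2391 and 2430 at the same times.

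**Figure D1:**
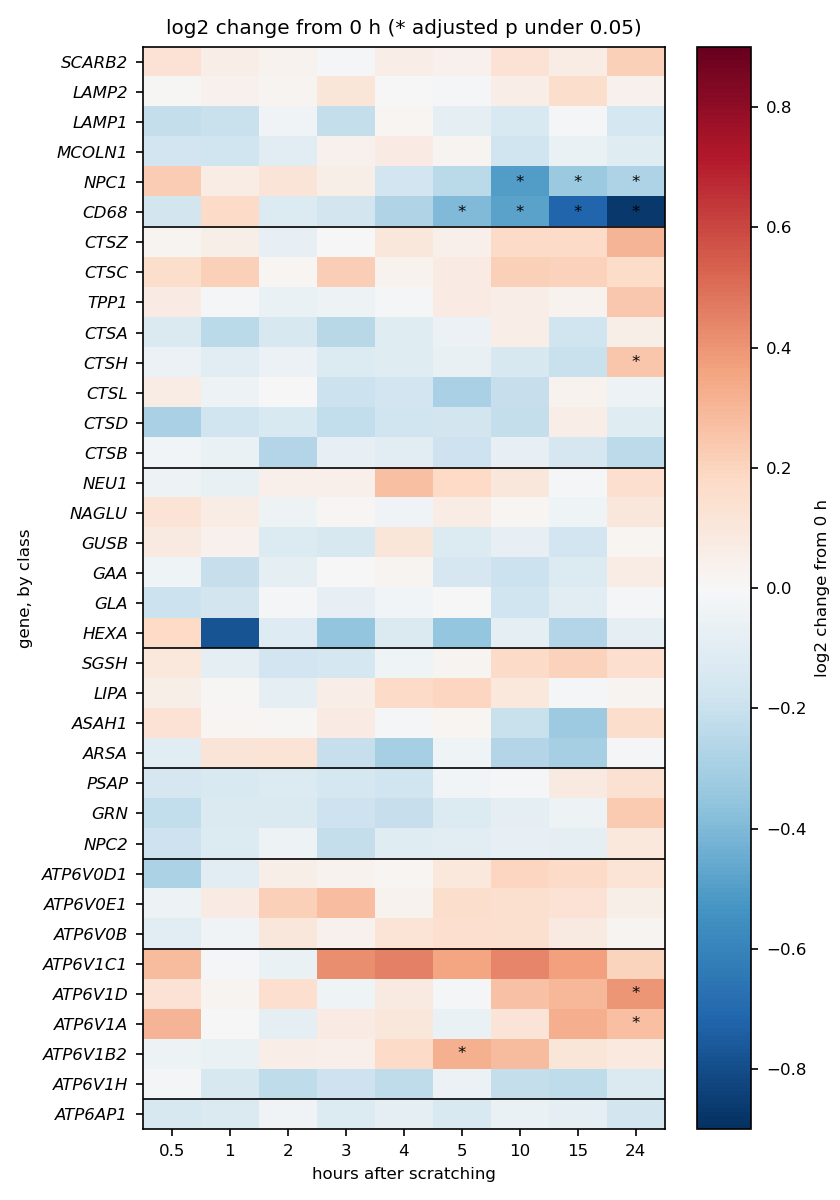
Fitted log2 change from 0 h of each tested lysosomal gene at the 9 times after scratching (columns, hours), grouped by class with lines between classes and averaged over the co-cultures. Asterisks mark changes with a limma adjusted p under 0.05. They are confined to 5 h and later in this plot, and CD68 carries them from 5 h to 24 h.

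CD68, a heavily glycosylated membrane protein of late endosomes and lysosomes, had the largest change. Beside HPAEC its log2 intensity was 10.95 and 11.03 at 0 h, 10.82 at 0.5 h, 10.98 at 1 h, 10.91 at 2 h, 10.71 at 3 h, 10.77 at 4 h, 10.59 at 5 h, 10.54 at 10 h, 10.26 at 15 h, and 10.21 and 10.09 at 24 h. Beside H838 it was 10.77 and 10.77 at 0 h, 10.58 at 0.5 h, 11.12 at 1 h, 10.60 at 2 h, 10.72 at 3 h, 10.45 at 4 h, 10.37 at 5 h, 10.25 at 10 h, 10.07 at 15 h, and 9.85 and 9.92 at 24 h. The lowest values of both courses were those at 24 h, and the 8 arrays of 10 to 24 h all lay below the 4 arrays of 0 h. At 24 h the change was -0.87 (SE 0.079), a level 0.549 times that of 0 h, with an adjusted p of 2.2e-05 for the test over all times. All 3 CD68 probes were lower late than at 0 h, at -0.69 (SE 0.070), -0.37 (SE 0.091) and -0.29 (SE 0.107), and the first and second of them passed when every probe was tested. CD68 is widely used as a macrophage marker. Of 12 macrophage and leukocyte markers, PTPRC, CD163, FCER1G, MRC1 and CD53 were detected on no array, and TYROBP and AIF1 on all 24. The summed raw intensity of that list, over 23 probes, was 2858 to 3231 on HPAEC arrays and 2892 to 3416 on H838 arrays. These sums include background, with a median raw intensity over all probes of 108.81 to 129.96 per array. The part of such cells in the CD68 result was not tested. In these bulk lysates, fewer cells that express a gene and less of its RNA per cell cannot be told apart.

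NPC1, the membrane transporter that passes cholesterol out of the lysosome, followed another course. Beside HPAEC it stood at 10.22 and 10.39 at 0 h, 10.53 at 0.5 h, 10.42 at 1 h, 10.55 at 2 h, 10.33 at 3 h, 10.22 at 4 h, 10.04 at 5 h, 9.77 at 10 h, 9.99 at 15 h, and 9.92 and 10.13 at 24 h. Beside H838 it stood at 10.17 and 10.29 at 0 h, 10.38 at 0.5 h, 10.24 at 1 h, 10.22 at 2 h, 10.30 at 3 h, 9.97 at 4 h, 10.01 at 5 h, 9.75 at 10 h, 9.88 at 15 h, and 9.99 and 10.00 at 24 h. Both courses had their minimum at 10 h and were higher again at 24 h. The change was -0.50 (SE 0.087, 0.705 times the 0 h level) at 10 h, -0.33 (SE 0.087) at 15 h and -0.28 (SE 0.073) at 24 h, and the adjusted p over all times was 0.00095.

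**Figure D2:**
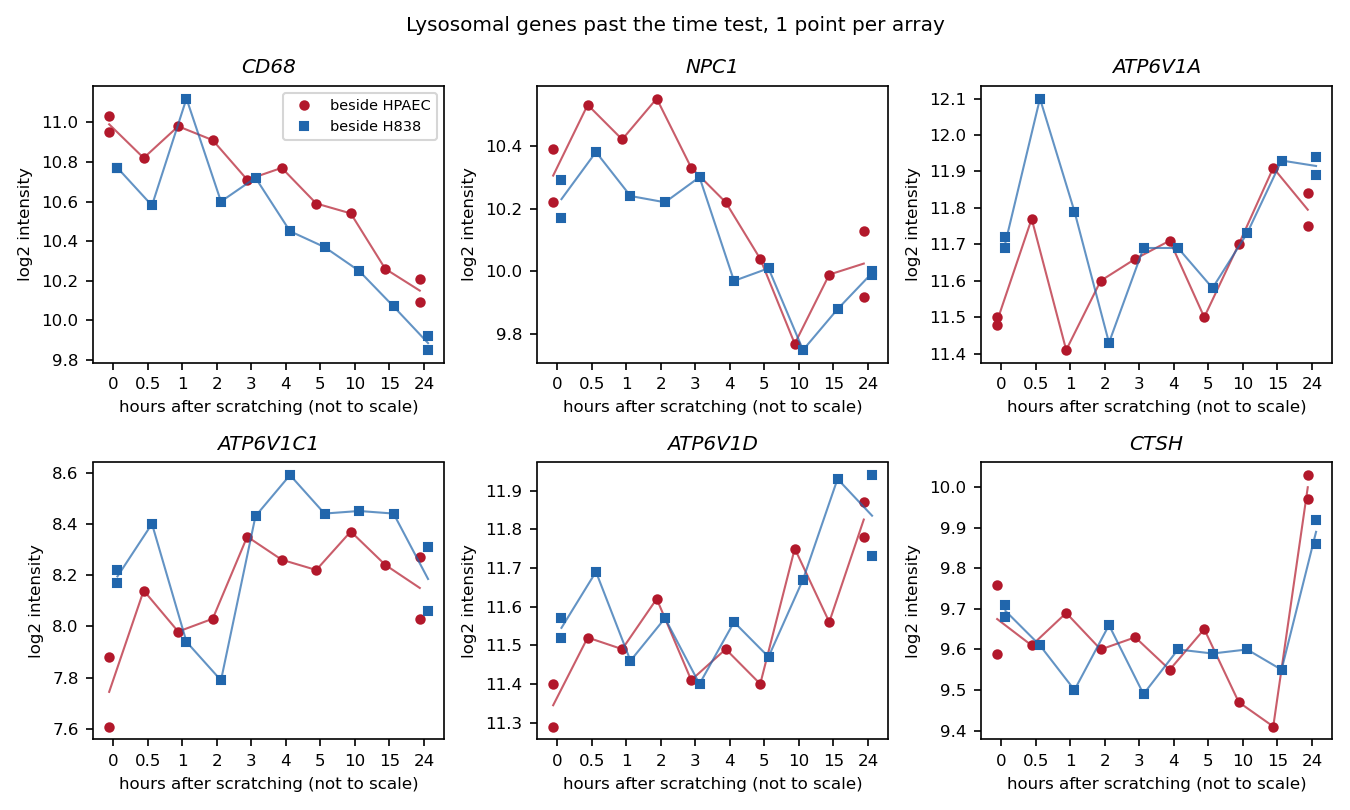
Log2 intensity of the 6 lysosomal genes that passed the test over time, 1 point per array, with lines through the mean at each time for cells beside HPAEC (red circles) and beside H838 (blue squares). The horizontal axis lists the hours in order and is not to scale, and each panel has its own vertical range. CD68 declines in both co-cultures, NPC1 has its lowest point at 10 h, and CTSH is highest at 24 h.

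In the early window, the mean of 0.5, 1 and 2 h, 0 of 36 lysosomal genes passed limma's test, against 0.461% of all genes. At an unadjusted p under 0.05 there were 2, against 1357 of all 11494 genes. Without both HPAEC replicate 2 arrays 0 of 36 passed as well. The smallest p-values belonged to CTSD (cathepsin D, an aspartic protease), LAMP1 (a major structural protein of the lysosomal membrane) and MCOLN1 (the mucolipin cation channel). Their changes were -0.20 (SE 0.093), -0.15 (SE 0.068) and -0.15 (SE 0.071), with adjusted p-values of 0.400, 0.409 and 0.424.

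In the middle window, the mean of 3, 4 and 5 h, 2 of 36 genes passed (5.56%), against 15.3% of all genes (7.99% higher and 7.28% lower). ATP6V1C1, the C subunit of the V1 sector, rose by 0.41 (SE 0.102, adjusted p = 0.013), and CD68 fell by 0.28 (SE 0.070, adjusted p = 0.015). The CD68 probes disagreed in this window: -0.28 for the probe used, and -0.15 (SE 0.094) and 0.09 (SE 0.111) for the others. Neither of those others passed when every kept probe was tested by limma (adjusted p = 0.343 and 0.648). The 6 ATP6V1C1 values ran from 8.22 to 8.59 with a median of 8.39, against 7.61 and 7.88 beside HPAEC and 8.22 and 8.17 beside H838 at 0 h. Within each co-culture every middle array lay above both 0 h arrays, and the share of all genes with such a separation was not counted. The call of ATP6V1C1 was lost without HPAEC 0 h replicate 1 (0.31, adjusted p = 0.058). That of CD68 was lost without H838 0 h replicate 1 (-0.27, adjusted p = 0.057), without HPAEC 0 h replicate 2 (-0.26, adjusted p = 0.070) and without both HPAEC replicate 2 arrays (-0.26, adjusted p = 0.092).

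The lysosomal cathepsin CTSL was the one gene whose 6 middle arrays did not overlap the 4 arrays of 0 h over both co-cultures, which 9.47% of all genes also showed. It ran from 11.22 to 11.40 with a median of 11.32 in the middle window, against 11.50, 11.51, 11.50 and 11.64 at 0 h. Its difference of -0.22 (SE 0.072) had an adjusted p of 0.0501, just outside the threshold. Its 3 probes gave -0.22, -0.20 and -0.17.

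In the late window, the mean of 10, 15 and 24 h, 5 of 36 genes passed (13.9%), close to the 15.5% of all genes (7.93% higher and 7.57% lower). The V1 subunits ATP6V1C1, ATP6V1D and ATP6V1A rose, CD68 and NPC1 fell, and the median over the 36 genes was 0.00, as it was over all genes (0.0049). By class, 3 of 9 pump genes and 2 of 6 membrane proteins passed. Of the 18 hydrolases and 3 cofactors 0 did by limma. At an unadjusted p under 0.05 there were 2 hydrolases and 0 cofactors, against 3439 of all 11494 genes.

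**Figure D3:**
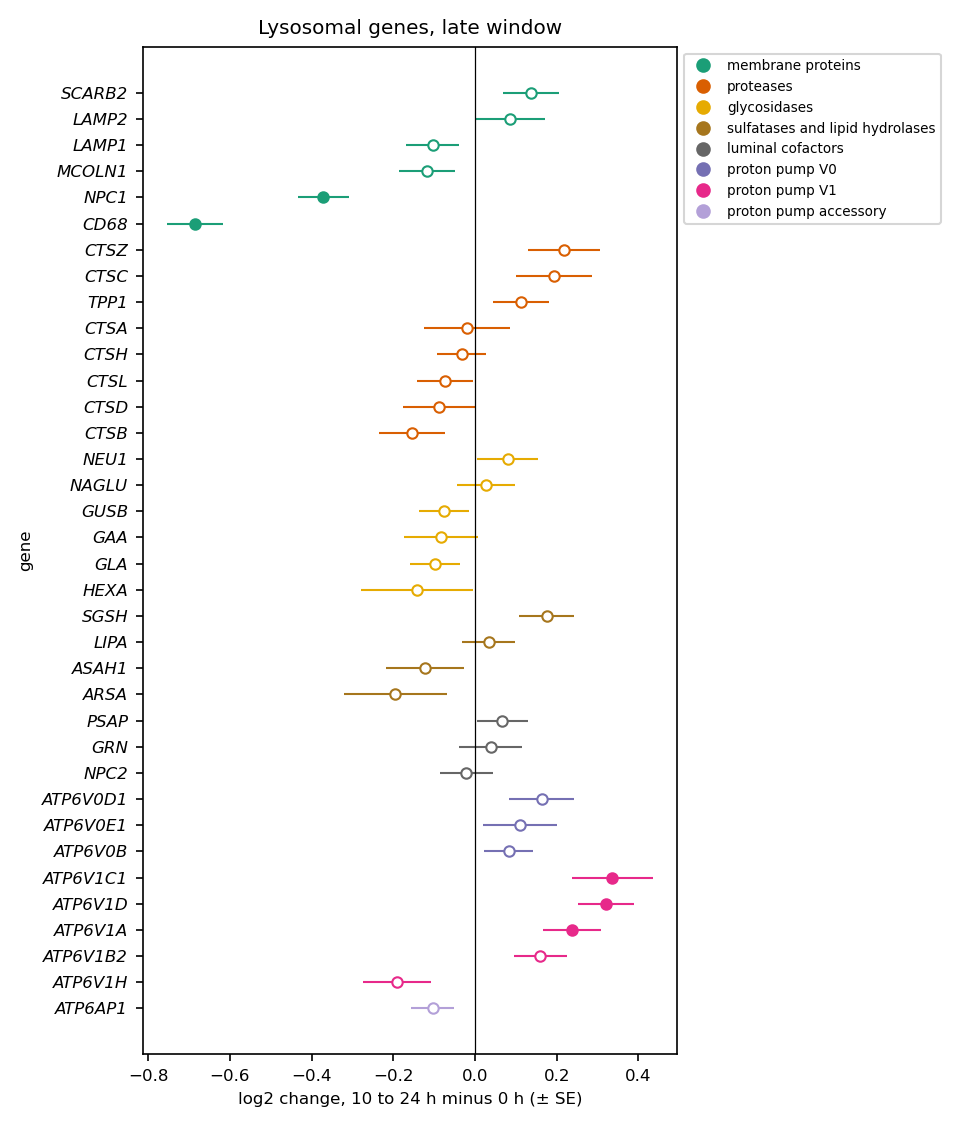
Log2 change of each tested lysosomal gene in the late window (10 to 24 h minus 0 h), with bars of 1 SE, coloured by class. Filled circles passed limma's test (adjusted p under 0.05), and open circles did not. CD68 (-0.69) and NPC1 (-0.37) stand at the left and the V1 subunits ATP6V1C1, ATP6V1D and ATP6V1A (0.24 to 0.34) at the right, with the hydrolases between.

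CD68 had a late minimum of 9.85, a median of 10.15 and a maximum of 10.54 over 8 arrays, against 10.77, 10.77, 10.95 and 11.03 at 0 h. Its change was -0.69 (SE 0.068, 0.622 times the 0 h level, adjusted p = 1.9e-05). NPC1 ran from 9.75 through a median of 9.96 to 10.13, against 10.17, 10.22, 10.29 and 10.39 at 0 h, a change of -0.37 (SE 0.063, adjusted p = 0.00127). These were the 2 lysosomal genes whose late arrays did not overlap the 0 h arrays over both co-cultures, as 4.79% of all genes did. Within single chips, CD68 differed from its 0 h array by -0.61 beside HPAEC on chip 1 (3 arrays against 1) and by -0.74 beside H838 on chip 2 (4 arrays against 1). NPC1 differed by -0.33 and -0.39 in the same comparisons. With each chip fitted alone no lysosomal gene passed (0 on chip 1 and 0 on chip 2, where 4 and 0 of all genes did), although the fitted late changes of CD68 were -0.66 and -0.82. CD68 was the one call left under median scaling.

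ATP6V1D, the D subunit of the central rotor, rose in the late window. Its log2 intensity was 11.75 at 10 h, 11.56 at 15 h, and 11.78 and 11.87 at 24 h beside HPAEC, against 11.40 and 11.29 at 0 h. Beside H838 it was 11.67 at 10 h, 11.93 at 15 h, and 11.94 and 11.73 at 24 h, against 11.57 and 11.52 at 0 h. Every late array lay above both 0 h arrays of its own co-culture. The same held for ATP6V1B2, which did not pass in this window. The share of all genes with such a separation was not counted. The change of ATP6V1D was 0.32 (SE 0.069, 1.25-fold, adjusted p = 0.0058).

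ATP6V1A, the catalytic subunit that hydrolyses ATP, was at 11.70 at 10 h, 11.91 at 15 h, and 11.75 and 11.84 at 24 h beside HPAEC, against 11.50 and 11.48 at 0 h. Beside H838 it was at 11.73, 11.93, 11.89 and 11.94 over the same late arrays, against 11.69 and 11.72 at 0 h. The late and 0 h arrays did not overlap within either co-culture, again with no share over all genes counted. The change was 0.24 (SE 0.071, adjusted p = 0.033). H838 cells at 0.5 h reached 12.10, the highest ATP6V1A value of the 24 arrays, so the course was not a steady climb.

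ATP6V1C1 was at 8.37, 8.24, 8.03 and 8.27 late beside HPAEC, against 7.61 and 7.88 at 0 h. Beside H838 it was at 8.45, 8.44, 8.31 and 8.06, against 8.22 and 8.17. The groups overlapped beside H838 and did not beside HPAEC (share of all genes not counted). Lysosomal genes that did not pass also separated late from 0 h beside HPAEC. Among them were LAMP1, GAA and ARSA, which lay lower, and NEU1, LIPA and CTSC, which lay higher. The change over both was 0.34 (SE 0.099, adjusted p = 0.030). On chip 1 the HPAEC difference was 0.61, and on chip 2 the H838 difference was 0.14. The V1 calls rested on single 0 h arrays: without HPAEC 0 h replicate 2, ATP6V1C1, ATP6V1D and ATP6V1A had adjusted p-values of 0.105, 0.055 and 0.125, and 2 lysosomal calls were left. Without HPAEC 0 h replicate 1, ATP6V1C1 and ATP6V1A were lost (adjusted p = 0.137 and 0.103) and 3 calls were left. ATP6V1A was also lost without H838 0 h replicate 1 (adjusted p = 0.095). Without both HPAEC replicate 2 arrays the V1 adjusted p-values were 0.065, 0.051 and 0.119 in the same order, and CD68 and NPC1 were the calls left.

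The remaining V1 subunits went different ways. ATP6V1B2, the non-catalytic B subunit, stood 0.16 higher late (SE 0.064, adjusted p = 0.103), with its largest change at 5 h (0.32, SE 0.088), where it passed (adjusted p = 0.035). ATP6V1H, the regulatory H subunit, was at -0.19 (SE 0.084, adjusted p = 0.138). All 5 V1 subunits had an unadjusted p under 0.05 in the late window, as did 3439 of all 11494 genes. ATP6V1H was lower and the others were higher than at 0 h, and the median change over the 5 was 0.24.

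In the V0 sector, ATP6V0B, ATP6V0D1 and ATP6V0E1 gave 0.08 (SE 0.060), 0.16 (SE 0.080) and 0.11 (SE 0.090), and none passed (0 of 3 by limma, also 0 at an unadjusted p under 0.05). ATP6V0D1, with the smallest time p of its class, ran late from 10.07 to 10.30 with a median of 10.15, against 10.14, 9.99, 9.94 and 9.99 at 0 h. A second ATP6V0E1 probe gave 0.30 (SE 0.065, adjusted p = 0.0075 over all kept probes), unlike the brighter probe used for the gene. The accessory protein ATP6AP1 stood at -0.10 (SE 0.053, adjusted p = 0.198) and ran from 12.96 to 13.31 late, against 13.37, 13.27, 13.30 and 13.11 at 0 h. It did not pass at any time.

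Among the other membrane proteins, LAMP1, LAMP2 (a receptor in chaperone-mediated autophagy in 1 of its splice forms), SCARB2 (the sorting receptor of glucocerebrosidase) and MCOLN1 had late changes of -0.10, 0.09, 0.14 and -0.12, none past the threshold. The 6 LAMP2 probes, some of which belong to different transcript accessions, lay between -0.18 and 0.18.

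**Figure D4:**
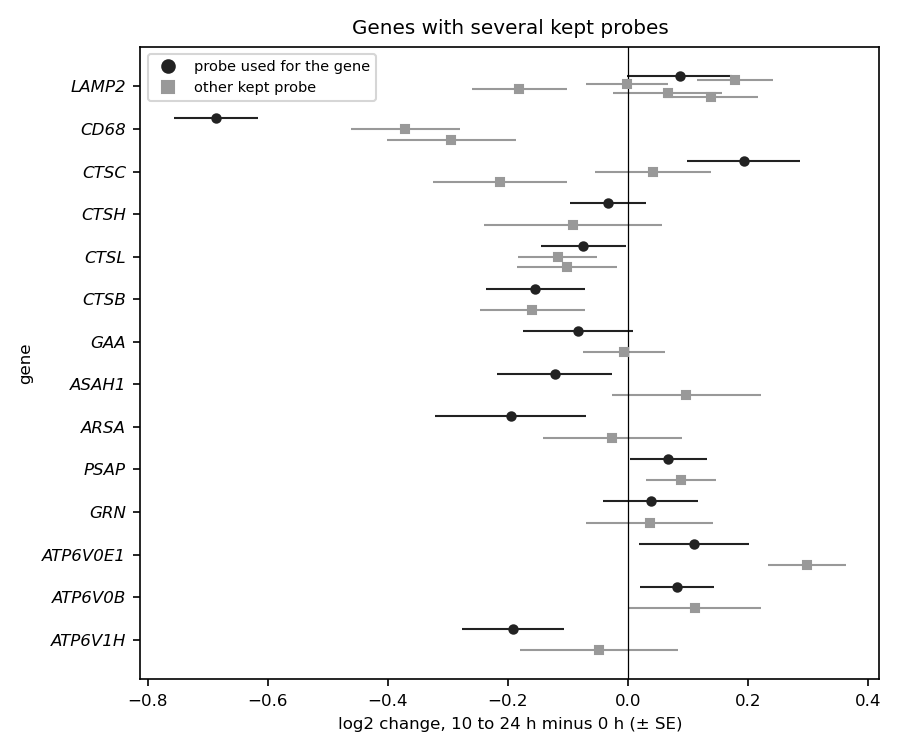
Late change (10 to 24 h minus 0 h, log2, with bars of 1 SE) of each kept probe for lysosomal genes with more than 1 kept probe. Black circles are the probes used for the gene and grey squares are the others. The 3 CD68 probes all lie left of 0, while the LAMP2 and CTSC probes lie on both sides.

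The hydrolases showed small changes in the late window. Proteases ran from -0.15 (CTSB, a cysteine cathepsin, adjusted p = 0.217) to 0.22 (CTSZ, a carboxypeptidase, adjusted p = 0.107). Glycosidases ran from -0.14 (HEXA, the alpha chain of the enzyme that degrades GM2 ganglioside) to 0.08 (NEU1, the sialidase). Sulfatases and lipid hydrolases ran from -0.20 (ARSA, arylsulfatase A, adjusted p = 0.321) to 0.17 (SGSH, a heparan sulfate sulfamidase, adjusted p = 0.096). GAA, GLA and GUSB, which cut glycogen, alpha-galactosides and glucuronides, stood at -0.08, -0.10 and -0.08, and NAGLU, of heparan sulfate breakdown, at 0.03. The acid ceramidase ASAH1 stood at -0.12 and the acid lipase LIPA at 0.03. TPP1, a tripeptidyl peptidase, was at 0.11, CTSA, the protective protein of NEU1, at -0.02, CTSD at -0.09, and CTSC, which activates serine proteases, at 0.19. For CTSC the 3 probes disagreed, at 0.19, 0.04 and -0.21. When every kept probe was tested by limma, the last of them was called lower in the middle window (-0.50, SE 0.114, adjusted p = 0.0093). The CTSC probe used for the gene stood at 0.11 there. A second GAA probe was also called lower in that window (-0.23, SE 0.070, adjusted p = 0.041), against -0.04 for the one used.

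CTSH, a cysteine cathepsin with aminopeptidase activity, passed the test over all times (adjusted p = 0.019), with its largest change at 24 h. At 24 h it was at 9.97 and 10.03 beside HPAEC, against 9.59 and 9.76 at 0 h, and at 9.86 and 9.92 beside H838, against 9.71 and 9.68. All 4 of the 24 h arrays lay above all 4 of the 0 h arrays, and the share of all genes with this pattern was not counted. The change at 24 h was 0.25 (SE 0.071, adjusted p = 0.030). At 15 h the values were 9.41 beside HPAEC and 9.55 beside H838, both below 0 h. Without HPAEC 0 h replicate 1 the largest change was instead -0.24, and the call over time was lost without HPAEC 24 h replicate 1, HPAEC 24 h replicate 2 or H838 24 h replicate 2 (adjusted p = 0.078, 0.056 and 0.052). ATP6V1A and ATP6V1C1 also lost that call without 6 and 4 of the 8 single arrays. A second, dimmer CTSH probe, detected on 17 arrays, had a largest change of opposite sign, -0.485 (SE 0.217). It did not pass when every probe was tested.

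HEXA had the largest single change of any hydrolase, -0.78 at 1 h (SE 0.190), without passing (adjusted p = 0.140). That value rested on 1 array: H838 at 1 h was at 5.71, against 6.59 for HPAEC at 1 h, and was the array on which HEXA was not detected. The other 23 arrays lay between 6.30 and 7.17.

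The step from the middle to the late window was called for 6 of 36 genes (16.7%), against 14% of all genes (7.8% higher and 6.19% lower). ATP6V1D (0.31, SE 0.061, adjusted p = 0.0035), SGSH (0.23, SE 0.061, adjusted p = 0.018), ATP6V1A (0.20, SE 0.063, adjusted p = 0.046) and PSAP (0.19, SE 0.055, adjusted p = 0.032) rose, and CD68 (-0.41, SE 0.061, adjusted p = 0.00037) and NPC1 (-0.25, SE 0.056, adjusted p = 0.0076) fell. PSAP encodes prosaposin, the precursor of the saposins that present lipids to their hydrolases. SGSH ran from 9.20 to 9.36 over the 8 late arrays (median 9.28), against 8.88 to 9.14 over the 6 middle arrays (median 9.04), without overlap. The share of all genes without overlap between these windows was not counted. PSAP ran from 13.74 to 14.06 late (median 13.94), against 13.64 to 13.87 in the middle window (median 13.71), with overlap. The other luminal cofactors, GRN (progranulin) and NPC2 (the soluble cholesterol carrier), gave 0.21 (adjusted p = 0.054) and 0.12 (adjusted p = 0.190). GRN was at 11.05 and 10.99 at 24 h beside HPAEC, against 10.88 and 10.95 at 0 h, and at 11.05 and 11.08 at 24 h beside H838, against 10.69 and 10.68 at 0 h. Its 24 h arrays lay above the 0 h arrays of both co-cultures (share of all genes not counted), without passing the test over time (adjusted p = 0.067). The ATP6V1A call was lost without any 1 of 7 of the 8 single arrays (adjusted p = 0.0505 to 0.0651), the exception being HPAEC 24 h replicate 1, and that of PSAP without H838 24 h replicate 1 (adjusted p = 0.0501). Without both HPAEC replicate 2 arrays, 5 genes were called, ATP6V1A being the one lost. Median scaling of the arrays moved the median over all genes to 0.12, against 0.0056, and under it CD68 (-0.26, adjusted p = 0.081) and NPC1 (-0.11, adjusted p = 0.489) were not called.

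On the 8 arrays of the duplicated times alone, 24 h against 0 h, 3 of 36 genes passed (8.33%), against 9.49% of all genes (4.85% higher and 4.64% lower). ATP6V1D rose by 0.39 (SE 0.080, adjusted p = 0.034), and CD68 and NPC1 fell by 0.86 (SE 0.069, adjusted p = 0.0051) and 0.30 (SE 0.063, adjusted p = 0.036). CTSZ (0.32, adjusted p = 0.0501), ATP6V1A (0.25, adjusted p = 0.061), GRN (0.24, adjusted p = 0.062), SCARB2 (0.24, adjusted p = 0.072) and CTSH (0.24, adjusted p = 0.074) were the next in order of p. Leaving out any 1 array left 0 or 1 call: CD68 alone for 6 of them, and 0 without HPAEC 24 h replicate 1 or without H838 0 h replicate 2. Without both HPAEC replicate 2 arrays 0 were called.

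Between the co-cultures, 0 of 36 lysosomal genes differed past limma's threshold, against 2.02% of all genes. At an unadjusted p under 0.05 there were 8, against 2186 of all 11494 genes. Without both HPAEC replicate 2 arrays, 0 lysosomal genes passed, and 0 of all genes did (232 with them). These are the only HPAEC arrays on chip 2, so the fit without them holds no comparison of co-cultures within that chip. In that fit 2 had an unadjusted p under 0.05, against 1386 of all genes. The median difference, HPAEC minus H838, was 0.01 over the 36 genes and 0.12 over the membrane proteins, and -0.15 over the V1 subunits. The smallest p belonged to ATP6V1B2, at a median of 11.14 (range 11.06 to 11.52) beside HPAEC and 11.36 (range 11.14 to 11.55) beside H838. Its difference was -0.21 (SE 0.059, adjusted p = 0.077), and the 4 array pairs matched for time and chip (0 h on chip 1, 0 h on chip 2, 0.5 h and 24 h) gave -0.24, -0.24, -0.25 and -0.23. In the pairs on chip 2, at 0 h and at 24 h, the HPAEC array was a replicate 2 array with the conflicting tag. CD68 followed, at a median of 10.74 (10.09 to 11.03) beside HPAEC and 10.52 (9.85 to 11.12) beside H838, with a difference of 0.21 (SE 0.064, adjusted p = 0.089). Its same-chip pairs, in that order, gave 0.18, 0.26, 0.25 and 0.17. ASAH1 had a difference of 0.25 (SE 0.089, adjusted p = 0.142) and same-chip pairs of 0.57, 0.09, 0.39 and 0.31. Its median was 7.40 beside HPAEC and 7.52 beside H838, so the fitted difference, which adjusts for chip, and the medians had opposite signs.

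**Figure D5:**
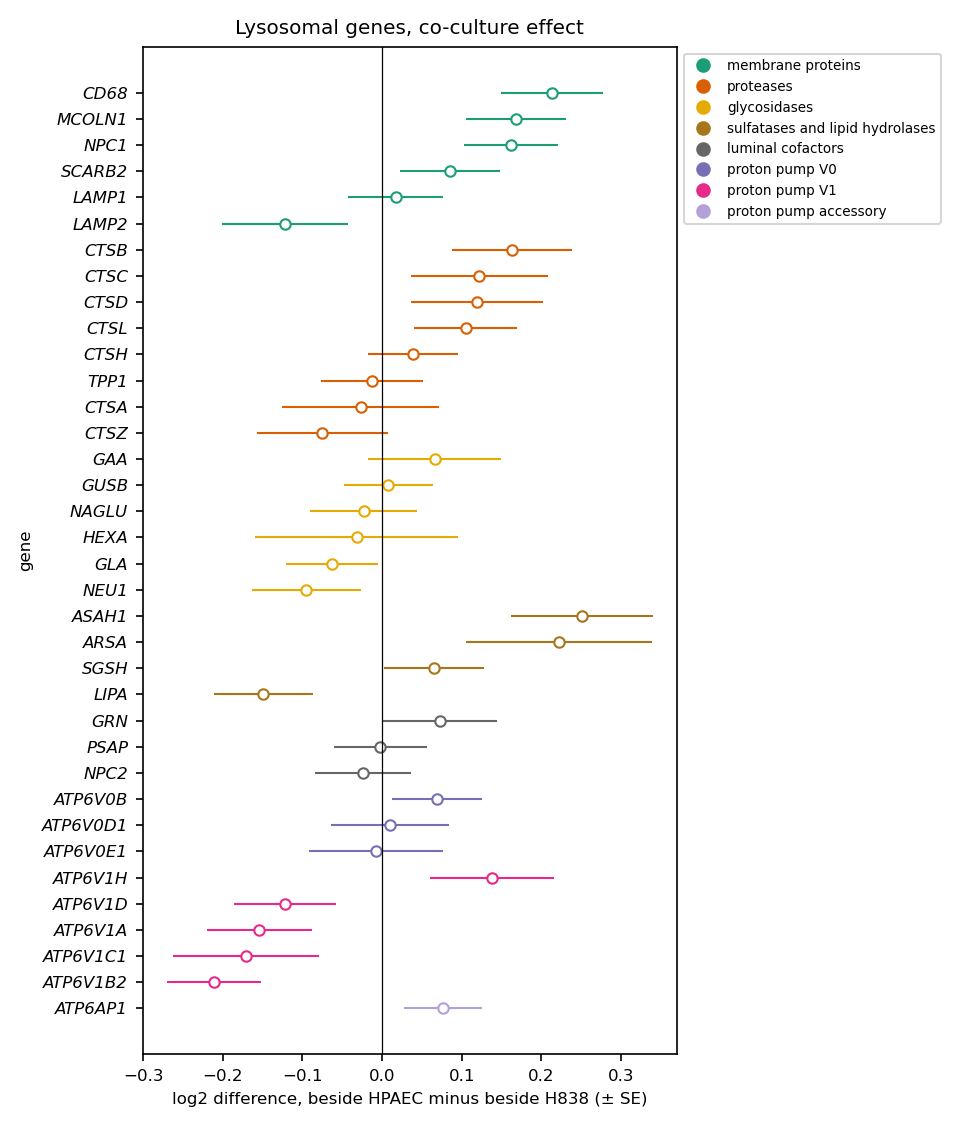
Log2 difference between co-cultures (beside HPAEC minus beside H838) of each tested lysosomal gene, with bars of 1 SE, from the fit with time and chip as terms. All circles are open because none passed limma's test. ATP6V1B2 (-0.21) lies furthest left and ASAH1 (0.25) furthest right.

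NPC1 and ATP6AP1 were higher beside HPAEC at 10 of 10 times, by 0.02 to 0.33 and by 0.01 to 0.27, as were 2.43% of all genes. At 7 of the 10 times the arrays compared lay on different chips, so this tally counts chip as well as co-culture. Their fitted differences were 0.16 (SE 0.059, adjusted p = 0.150) and 0.08 (SE 0.049, adjusted p = 0.427). Leaving chip out of the model gave 6 calls of 36 (ATP6AP1, CD68, CTSB, CTSC and MCOLN1 higher beside HPAEC, and ATP6V1B2 lower), close to the 15% of all genes called in that fit. There co-culture and chip cannot be told apart, since 20 of the 24 arrays combine HPAEC with chip 1 or H838 with chip 2.

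Whether the change from 0 h differed between co-cultures was tested over the 3 windows together. By limma 0 of 36 lysosomal genes passed and 0 had an unadjusted p under 0.05, and 0% of all genes passed (531 of 11494 at an unadjusted p under 0.05). Without both HPAEC replicate 2 arrays 0 lysosomal genes passed as well, with 0 at an unadjusted p under 0.05. The smallest p-values were those of NEU1, LAMP1 and SGSH (0.068, 0.132 and 0.147). For NEU1 the early difference in change, HPAEC minus H838, was 0.42 (SE 0.153).

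Of the promoters described above, 0 of the 8 genes with TCACGTG passed the time test, and 4 of the 15 tested genes whose window lacks it did (CD68, NPC1, CTSH and ATP6V1D), where 22.8% of all genes passed. The late changes of the 8 genes ran from -0.12 to 0.16 with a median of -0.05, and those of the 15 from -0.69 to 0.32 with a median of -0.02. The difference between these groups was not tested, and the other 13 tested genes had no window on hand.

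Wider lists of lysosomal genes held 154 further symbols, of which 127 were tested. In the late window 20 of the 127 passed, 13 higher and 7 lower, against 15.5% of all genes. Calls in these lists were not counted under the alternative settings. Over all genes, late calls fell from 1781 to 772 without both HPAEC replicate 2 arrays and to 571 under median scaling. Among 24 other lysosomal membrane proteins 7 passed, 5 higher and 2 lower. Those that rose included the proton-coupled amino acid transporter SLC36A1 (0.55, SE 0.09), the sialomucin CD164 (0.54, SE 0.18, adjusted p = 0.0495) and the iron transporter SLC11A2 (0.27, SE 0.06). LAMP3 (-0.65, SE 0.10) was among those that fell. Of 24 other hydrolases 1 passed, the carboxypeptidase SCPEP1 (0.23, SE 0.07). Of 10 other pump subunits 0 passed late by limma (2 at an unadjusted p under 0.05, against 3439 of all 11494 genes). In the middle window, when 15.3% of all genes passed, ATP6V0A2 (0.44, SE 0.10) and ATP6V1G1 (0.18, SE 0.06, adjusted p = 0.0489) rose.

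Among 23 genes of the TFEB family and of mTORC1 at the lysosome, 5 passed in the late window, against 15.5% of all genes. LAMTOR3, a Ragulator subunit (0.45, SE 0.09), and the Rag GTPase RRAGB (0.32, SE 0.08) rose. TFE3, the relative of TFEB (-0.35, SE 0.10), and the kinase GSK3B (-0.22, SE 0.07, adjusted p = 0.043) fell. In the middle window, when 15.3% of all genes passed, LAMTOR3 (0.32), RRAGC (0.28) and FNIP1 (0.23) rose. Of 22 sorting genes 4 passed late, against the same 15.5%, among them SUMF1, the sulfatase-activating enzyme of the endoplasmic reticulum (0.33, SE 0.06), which rose, and VPS33A, a tethering complex subunit (-0.32, SE 0.08), which fell. VPS18, of the same tethering complexes, rose by 0.78 (SE 0.09, adjusted p = 6.2e-05) in the middle window and was 0.58 lower late than in the middle window.

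Of 24 autophagy genes 3 passed late, against 15.5% of all genes: ATG16L1, of the conjugation machinery (0.39, SE 0.07), and the receptor OPTN (0.32, SE 0.08) rose, and the initiating kinase ULK1 (-0.24, SE 0.07) fell. In the middle window, when 15.3% of all genes passed, ATG16L1 (0.37), ATG101 (0.23) and MAP1LC3B (0.22) rose and the receptor CALCOCO2 (-0.25) fell. Between co-cultures 1 of the 127 genes passed, against 2.02% of all genes, GABARAPL1, a ubiquitin-like protein of autophagosomes (-0.29, SE 0.07, adjusted p = 0.044), lower beside HPAEC. The early window had 0 of 127 by limma.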

How the data were processed

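Gene expression was measured in 24 lysates on Illumina HT-12 bead arrays. The deposited non-normalized table gives each probe, per the file headers, an averaged bead intensity on every array and a detection p-value. A second table deposited by the authors holds a normalized intensity, used as an alternative. For both, the software and the genome build are not given in the sources used.

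Intensities were background-corrected with limma's normal-exponential model (control statistics inferred from detection p-values, offset 16), quantile normalized and log2 transformed. A probe was kept if detected (p-value under 0.01) on 2 or more arrays. For each gene the brightest kept probe was used, with names from the supplied platform annotation (30080 of 47286 probes with 1 symbol, 8 with several). Probes were not placed on a genome.

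All tests used limma 3.58.1 in R 4.3.3 (data.table version 1.17.8), two-sided, with Benjamini-Hochberg adjustment over 11494 genes and a threshold of 0.05. One model had 10 times, co-culture and chip (12 residual degrees of freedom) and assumes a co-culture difference equal at all times. Another fitted each window within each co-culture, beside chip (15), and the last used the 8 arrays of 0 and 24 h (3). On simulated data for the late window over 11494 genes, 35% of changes of 0.3 and 70% of changes of 0.5 were called, and 0.08% of unchanged genes. The number of arrays limits the precision.

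Samples were grouped by title. The described genes were, per comparison, those past the threshold (at most 6 each way, and without any call the 3 with the lowest p), 1 gene per class and up to 4 per wider list. CTSL and the members given by value alone were added after their values were seen. The members and lists were chosen with earlier results of these data known. Correlations between groups of the differences between replicates were -0.046 to 0.133, so replicate numbers were not taken to pair samples. Alternatives were median scaling, no background correction, the authors' normalized table, other detection filters, every kept probe, other uses of chip, and leaving out arrays. Promoter letters come from RefSeq (GRCh38.p14).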

Additional observations from a re-analysis of the deposited data

How the results depend on the processing

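The early window and the window by co-culture test gave 0 lysosomal calls under every alternative run. Counts of lysosomal genes called moved as follows, and the causes were not tested. Between co-cultures (0), 1 gene (ATP6V1B2, lower beside HPAEC) was called with no background correction and with detection required on all 24 arrays, and 6 (5 higher, 1 lower) with chip left out or as a random block. Over time (6), 3 were called under median scaling, 11 with no background correction, 2 without both HPAEC replicate 2 arrays, and 4 to 5 without single arrays. In the middle window (2), the counts were 0 under median scaling, 4 with the authors' normalized table, 4 with every kept probe, 1 without both HPAEC replicate 2 arrays, 0 on either chip alone and 1 to 3 without single arrays. In the late window (5), they were 1 under median scaling, 2 without both HPAEC replicate 2 arrays, 0 on either chip alone and 2 to 6 without single arrays. For late minus middle (6), they were 0 on either chip alone and 4 to 6 without single arrays. For 24 h against 0 h on duplicated times (3), they were 1 under median scaling, 10 with no background correction, 8 with the authors' table, 8 with detection on all arrays, 1 with no filter, 5 with every kept probe, 7 with chip left out, 0 without both HPAEC replicate 2 arrays and 0 to 1 without single arrays. With the replicate number as a block in place of chip, 3 were called there (ATP6V1A, ATP6V1D and CD68). The largest time change of CTSH reversed to -0.30 under median scaling (adjusted p = 0.205) and to -0.24 without HPAEC 0 h replicate 1, within a range of -0.24 to 0.28 without single arrays. The late change of CD68 lay between -0.82 and -0.63 in all 19 alternatives and passed in 17, the exceptions being either chip alone, which has fewer arrays. Over all genes, median scaling called 571 late (72.9% higher), against 1781 (51.2% higher), 585 in the middle window (35.2% higher), against 1755 (52.3%), 1377 for late minus middle (91% higher), against 1608 (55.7%), 1347 over time, against 2621, 20 early, against 53, 5 between co-cultures, against 232, and 532 on duplicated times, against 1091. Between co-cultures leaving chip out called 1723 genes and a random chip block 1949, and 0 were called without both HPAEC replicate 2 arrays. Arrays have no read depth, and signal over background limits TFEB and HEXA.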
